A study of Mus musculus with 18 samples.

Results

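The comparison described here sets RNA captured by an antibody against N6-methyladenosine (m6A-tagged RNA) against unfractionated input RNA in haematopoietic stem cells (HSCs) that had lost Mettl3. It rests on 6 of the 18 libraries of the series, 3 m6A-tagged and 3 input. The mice were C57BL/6 Mx1-cre; Mettl3fl/fl animals, in which an interferon-inducible Cre deletes the floxed Mettl3 gene. The series also holds the unbound fraction of the same genotype and all 3 fractions of wild-type mice. Both genotypes received 5 intraperitoneal injections of 10 µg pIpC, which induces interferon, so the controls had that stimulus too, and were killed 10 days after the last one. Mx1-cre is also active in other interferon-responsive cells of the animal, and the labels give no deletion efficiency. From each sample 3000 Lineage- Sca1+ cKit+ CD150+ CD48- bone marrow cells were sorted, and their polyadenylated RNA was isolated. It was incubated with 1.25 µg of the antibody, the washes were kept as unbound RNA, and bound RNA was eluted with 20 mM of the free modified nucleotide. Smart-seq2 served to amplify the fractions, and paired reads were 150 bases long. The deposited values are RPKM, in which the reads of a gene are divided by its length in kilobases and by the M reads of the library (M being 1e6), 1 column per fraction, each the authors' mean of 3 libraries. Of 23038 genes, 6295 were compared, those whose 6 columns from both genotypes averaged 10 RPKM or more. For each, log2 of (m6A-tagged RPKM + 1)/(input RPKM + 1) was taken, called the log2 ratio below. A gene counts as higher or lower at a 2-fold size on this scale, which is a size and not a test.

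METTL3 is the catalytic subunit of the nuclear complex that places N6-methyladenosine on nascent transcripts, most often near stop codons and in long internal exons. Reader proteins of the YTH family bind the mark and take part in the decay, splicing, export and translation of the marked transcript. Short-lived transcripts of regulators are well known carriers of the mark, while transcripts of ribosomal protein and other housekeeping genes are known to carry little of it. In blood, the loss of METTL3 is known to impair the differentiation of HSCs.

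The m6A-tagged libraries had depths of 25.9, 30.6 and 33.6 M reads and the input libraries 9.42, 22.1 and 30.1 M reads, worked out from the deposited values and listed by depth, since no column carries a replicate number. Mettl3 itself (chromosome 14, 52294841 to 52308741) stood at 17.4 RPKM in m6A-tagged and 19.6 RPKM in input RNA of the Mettl3-deficient cells, against 36.4 RPKM in wild-type input. Which exons were counted is not stated, so a transcript without the floxed part may be included. Of 10 HSC markers, 8 reached 10 RPKM in Mettl3-deficient input and none was under 1 RPKM. Granulocyte precursor markers were also present, with summed levels of 1427 RPKM in m6A-tagged and 1208 RPKM in input RNA over 10 genes, against 1267 RPKM in input over the HSC markers. None of 8 eosinophil and basophil markers reached 10 RPKM, and 5 lay under 1 RPKM in input. Of 8 monocyte and macrophage, 8 T and NK, and 6 endothelial and stromal markers, 4 each lay under 1 RPKM in input. In the same order 1, 1 and 2 of them reached 10 RPKM in input. Megakaryocyte markers summed to 266 RPKM in input, with 3 of 6 at 10 RPKM or more. Erythroid markers summed to 30.3 RPKM in input, with 1 of the 6 measured at 10 RPKM or more. B cell markers summed to 1239 RPKM in m6A-tagged and 993 RPKM in input RNA, although 4 of the 6 measured were under 1 RPKM in input. Cd74 alone made up most of both sums, at 1100 RPKM in m6A-tagged and 902 RPKM in input RNA. The part of other cells in the ratios was not tested, and in such bulk samples fewer cells of a type and less RNA per cell cannot be told apart.

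In Mettl3-deficient HSCs, 86 genes (1.37%) were at least 2-fold higher and 91 (1.45%) at least 2-fold lower in m6A-tagged than in input RNA. The 15 highest included Ybx3, Selenon, Cebpb, Arf6, Rcor1 and Sox4, and the 15 lowest included ribosomal protein genes, 3 H2-Q genes, Snord95 and Cst7. The log2 ratio had a median of 0.12 over all genes, with quartiles at -0.16 and 0.37, and 61.5% of genes lay above 0. In all, 6 genes were 4-fold higher and 8 were 4-fold lower. Of the genes past 2-fold, 48.6% were higher, a share of 28.2% with median-ratio and 29.2% with upper-quartile scaling of the m6A-tagged column, which moved the median of all genes to 0 and 0.01. In wild-type HSCs 3.69% of genes were higher and 5.23% lower by the same size. Of the 86 genes higher without Mettl3, 75.6% had a wild-type log2 ratio above 0, against 53.4% of all genes, and 12.8% were also 2-fold higher there. In input RNA 84.9% of the 86 stood lower than in wild-type input, against 54.2% of all genes. The log2 ratio uses the same input column, so this share is not independent of it. Of the 91 lower genes, 80.2% had a wild-type ratio below 0, against 46.6% of all genes, and 20 of them were also 2-fold lower there. Just past the 2-fold size stood Zfp428 and Epn1 on the high side, with Zdhhc18 and Gm5617 just under it, both 2.00-fold higher once rounded. On the low side Rpl21 and Rpl17 were just past it, at -1.01 each, and Atp5c1 and Nudt21 were just within it, both 2.00-fold lower once rounded.

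**Figure D1:**
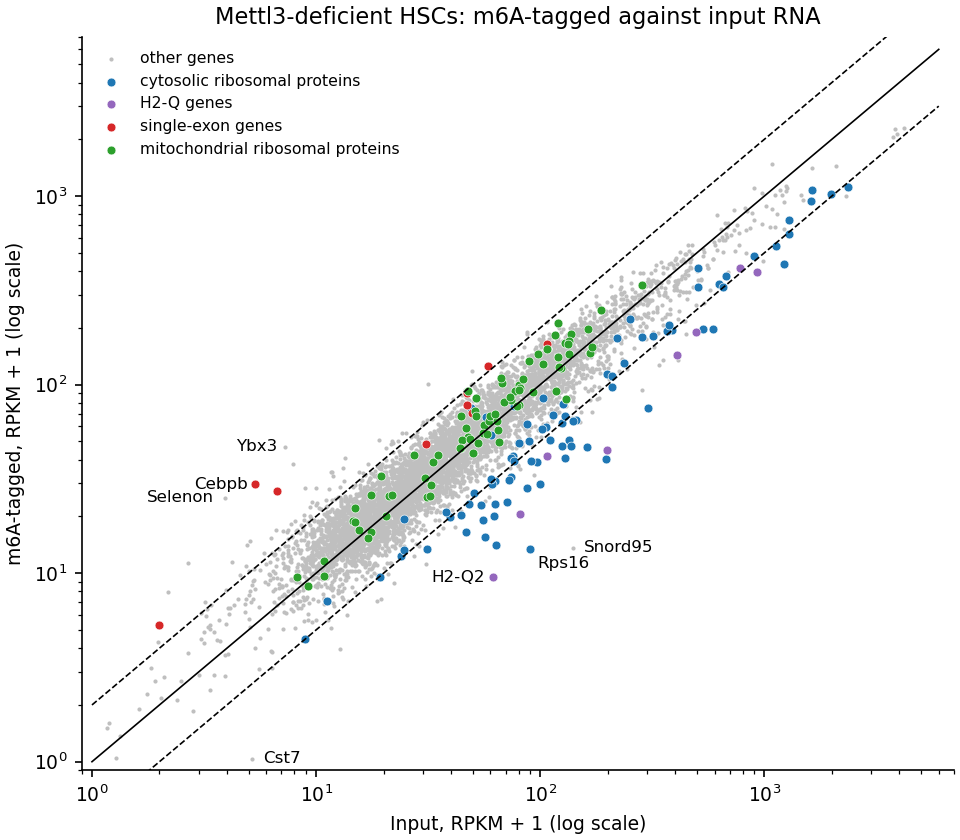
RPKM + 1 in m6A-tagged RNA (vertical, log scale) against input RNA (horizontal, log scale) of Mettl3-deficient HSCs, 1 point per gene for the 6295 genes compared, the solid line marking equality and the dashed lines a 2-fold difference. Of the cytosolic ribosomal protein genes 39 of 84, and of the H2-Q genes 7 of 8, lie under the lower dashed line, as do 1.45% of all genes. Mitochondrial ribosomal protein genes stay between the dashed lines, and all 9 genes of the chosen single-exon list lie above equality.

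Of the 15 genes with the highest ratios, those with a known role in transcription are given first, an ordering made after the values were seen. Cebpb (chromosome 2, 167688915 to 167690432), a bZIP transcription factor of myeloid cells, had 28.7 RPKM in m6A-tagged, 7.19 RPKM in unbound and 4.35 RPKM in input RNA, a log2 ratio of 2.47. Sox4, an HMG-box factor, had 26.4 RPKM in m6A-tagged against 5.67 RPKM in input RNA (2.04). Egr1, the zinc finger immediate early factor associated with HSC quiescence, had 33.5 RPKM in m6A-tagged against 10.6 RPKM in input RNA (1.57). For both genes the unbound value was the lowest of the 3 fractions, at 2.40 RPKM for Sox4 and 2.04 RPKM for Egr1. Cited2, a CBP and p300 partner needed for HSC maintenance in mice, was the most abundant of the 15, with 99.3 RPKM in m6A-tagged against 30.6 RPKM in input RNA (1.66). Tcf15, a bHLH factor that marks quiescent mouse HSCs, had 33.4 RPKM in m6A-tagged against 10.8 RPKM in input RNA (1.54). The corepressor scaffold gene Rcor1 had 10.3 RPKM in m6A-tagged against 1.69 RPKM in input RNA (2.07), and the Sin3 complex subunit gene Suds3 had 27.2 RPKM in m6A-tagged against 7.96 RPKM in input RNA (1.66).

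Ybx3 (chromosome 6, 131364858 to 131388450), a cold shock domain RNA-binding protein, stood highest of all genes compared, at 45.9 RPKM in m6A-tagged, 10.2 RPKM in unbound and 6.24 RPKM in input RNA (2.70). In wild-type cells Ybx3 had 154 RPKM in m6A-tagged and 218 RPKM in input RNA, a log2 ratio of -0.50 on the other side of 0. Selenon, a selenoprotein of the endoplasmic reticulum, had 24.1 RPKM in m6A-tagged against 2.91 RPKM in input RNA (2.69). Arf6, a small GTPase of membrane traffic at the cell surface, had 36.9 RPKM in m6A-tagged against 6.90 RPKM in input RNA (2.26). Lrg1, a secreted glycoprotein stored in neutrophil granules, had 6.97 RPKM in m6A-tagged against 1.18 RPKM in input RNA (1.87). Its input reads could be resolved into 3, 23 and 97 in the libraries of rising depth. The kinase gene Dapk3, the calsyntenin gene Clstn1, the RING finger gene Rnf44 and Tmem189 were 3.03-fold, 2.94-fold, 2.89-fold and 2.82-fold higher. Of the 15, all but Ybx3, Rcor1 and Rnf44 had a wild-type ratio above 0. With 5 RPKM added in place of 1, the ratios of Selenon, Cebpb, Rcor1 and Lrg1 were 1.88, 1.85, 1.19 and 0.95, so the last no longer passed 2-fold.

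**Figure D2:**
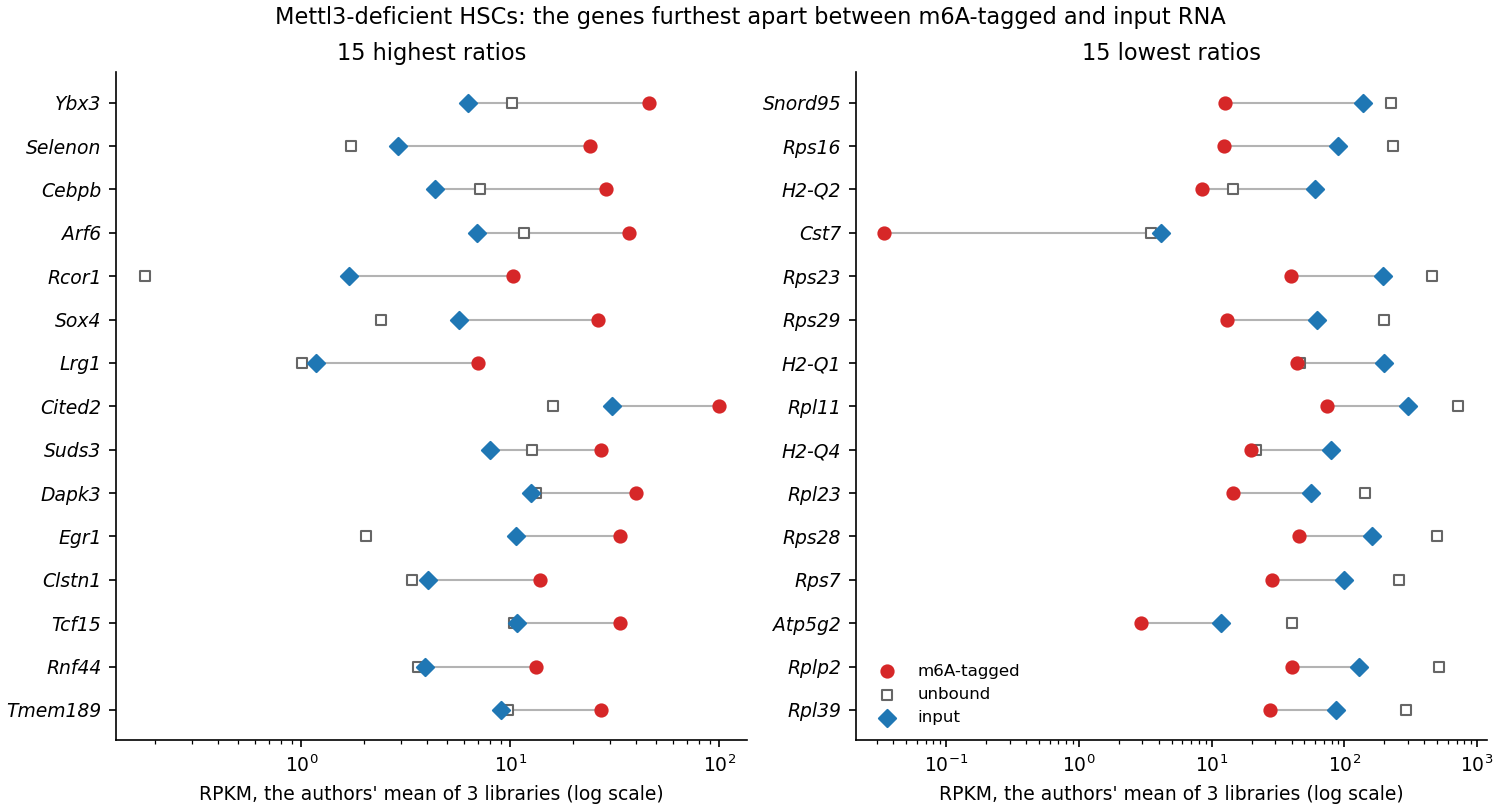
RPKM on a log scale of the 15 genes with the highest (left) and the 15 with the lowest (right) log2 ratio in Mettl3-deficient HSCs, with m6A-tagged RNA as circles, unbound RNA as open squares and input RNA as diamonds, each the authors' mean of 3 libraries. The unbound value of the lowest ribosomal protein genes lies to the right of input (Rps16, 234 RPKM against 88.8 RPKM), and that of the 3 H2-Q genes lies nearer to m6A-tagged than to input RNA (H2-Q1, 46.5 RPKM against 44.1 RPKM).

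The genes of the small and large cytosolic ribosomal subunits formed the largest group at the low end. Of 84 compared, 39 were at least 2-fold lower in m6A-tagged RNA, none was 2-fold higher, and 81 lay below 0. The 1.45% of all genes that were lower by this size is the background to the 39. Their median log2 ratio was -0.98, against 0.12 over all genes, and -0.68 for the same genes in wild-type cells. Their RPKM values summed to 13118 in m6A-tagged RNA, against 25256 in input RNA and 61842 in unbound RNA. Rps16 (chromosome 7, 28350689 to 28352698) was the lowest, at 12.4 RPKM in m6A-tagged against 88.8 RPKM in input RNA (-2.75). Rps23 had 39.4 RPKM in m6A-tagged against 195 RPKM in input RNA (-2.28), and Rpl23 had 14.5 RPKM in m6A-tagged against 55.6 RPKM in input RNA (-1.87). Abundant members lay on both sides of the list's median. The stalk protein gene Rplp0 had 626 RPKM in m6A-tagged against 1293 RPKM in input RNA (-1.05). Rpl4 had 1111 RPKM in m6A-tagged against 2368 RPKM in input RNA (-1.09). Rps14 was further below, at 433 RPKM in m6A-tagged against 1219 RPKM in input RNA (-1.49). Rpl8 was above the median, at 1080 RPKM in m6A-tagged against 1636 RPKM in input RNA (-0.60). Those above 0 were Rps4l at 0.61, Rpl34 at 0.23 and Rpl7l1, which is at 0.00 once rounded. Ribosomal protein genes have many processed copies in the mouse genome, and how reads shared with them were counted is not stated, so single members are uncertain. The Rps27 and Rps27rt values of 15.5 and 32.1 RPKM in m6A-tagged RNA and 45.5 and 92.1 RPKM in input RNA, computed from resolved reads, are an example, with ratios of -1.49 each.

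Other parts of the translation machinery did not stand as far below input. All 78 mitochondrial ribosomal protein genes were compared and none passed 2-fold in either direction. Their median was 0.22, with 55 above 0, as were 61.5% of all genes. The highest was Mrpl53 at 91.0 RPKM in m6A-tagged against 46.5 RPKM in input RNA (0.95). Of 11 elongation factor genes Eef1a1, which brings aminoacyl-tRNA to the ribosome, was the one past 2-fold, at 1001 RPKM in m6A-tagged against 2317 RPKM in input RNA (-1.21). The list's median was -0.23, and 1.45% of all genes were 2-fold lower. The 44 initiation factor genes had a median of -0.07 and the 34 aminoacyl-tRNA synthetase genes one of 0.01, with no member past 2-fold.

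Energy metabolism gave single low members. Of 19 ATP synthase genes 2 were 2-fold lower (1.45% of all genes were), with a median of -0.28. Atp5g2, a subunit of the membrane ring, had 2.95 RPKM in m6A-tagged against 11.8 RPKM in input RNA (-1.70), and Atp5md had 6.12 RPKM in m6A-tagged against 17.6 RPKM in input RNA (-1.39). None of 37 complex I genes and none of 24 genes of complexes II to IV passed 2-fold, with medians of -0.01 and -0.21. Of 17 glycolysis genes Gapdh (23.2 RPKM in m6A-tagged against 55.5 RPKM in input RNA, -1.22) and Ldha (450 RPKM in m6A-tagged against 985 RPKM in input RNA, -1.13) were lower, around a median of -0.14.

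Small nucleolar RNAs, which guide the modification of ribosomal RNA, had a median of -0.29 over 22 genes, of which 3 were 2-fold lower (1.45% of all genes were) and none higher (1.37% of all genes were). Snord95 (chromosome 11, 48803139 to 48803206) had the lowest ratio of all genes, at 12.7 RPKM in m6A-tagged, 224 RPKM in unbound and 139 RPKM in input RNA (-3.35). Its m6A-tagged libraries held 39, 29 and 1 reads in order of rising depth, against 129, 212 and 145 reads in the input libraries. All 3 m6A-tagged values were below all 3 input values, and the deepest m6A-tagged library was the lowest. Without the shallowest m6A-tagged library the ratio was -4.08. Snord69 was at 12.2 RPKM in m6A-tagged against 29.6 RPKM in input RNA (-1.21), with 1.65 RPKM in unbound RNA. Of 14 snoRNA host genes Snhg3 and Snhg4 were 2-fold lower, at -1.23 and -1.12, around a median of -0.20. A small nucleolar RNA lies in an intron of its host, and reads of an unspliced host cannot be told apart from it.

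The H2-Q genes, nonclassical MHC class I genes of the mouse, had the lowest median of the lists, -1.44 over 8 genes. Of the 8, 7 were at least 2-fold lower (1.45% of all genes were). The wild-type median of the H2-Q genes lay above 0, at 0.50. Their levels also differed between genotypes. In input RNA they summed to 3048 RPKM without Mettl3 and 417 RPKM in wild-type cells. In m6A-tagged RNA the sums were 1256 and 650 RPKM. In wild-type cells H2-Q2 had 0.30 RPKM in m6A-tagged and 0.28 RPKM in input RNA, too low to inform its ratio there. Without Mettl3, H2-Q2 (chromosome 17, 35342307 to 35346764) had 8.50 RPKM in m6A-tagged against 60.4 RPKM in input RNA (-2.69). Reads could be resolved for its m6A-tagged libraries, 561, 171 and 22 by rising depth, so the shallowest held most of them. H2-Q9, the most abundant, had 397 RPKM in m6A-tagged against 924 RPKM in input RNA (-1.22), and H2-Q7, the member under 2-fold, 415 RPKM in m6A-tagged against 781 RPKM in input RNA (-0.91). In unbound RNA these genes had 328 RPKM for H2-Q9 and 325 RPKM for H2-Q7. Set against unbound in place of input, the median of the 8 genes was 0.31, on the other side of 0. The H2-Q copies are alike in sequence to each other and to the classical genes, so their values are not independent. The classical heavy chain genes H2-K1 and H2-D1 and the light chain gene B2m had ratios of -0.87, -0.86 and -0.87. H2-K1 stood at 2058 RPKM in m6A-tagged against 3768 RPKM in input RNA. None of the 12 genes of classical class I presentation passed 2-fold, and their median was -0.12.

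Cst7 (chromosome 2, 150570415 to 150578944), a cystatin that inhibits lysosomal proteases in cytotoxic and myeloid cells, had no read in the 3 m6A-tagged libraries, against 12, 183 and 79 reads in the input libraries. Taking 3 reads in the 3 libraries together as the limit of detection, its reads per M were at least 133.6-fold lower in m6A-tagged RNA, a bound of 69.17-fold without the middle input library. Unbound libraries held 0, 34 and 208 reads by rising depth, so the shallowest also had none and the deepest held most of them. The middle input library held most of the input reads, and without it the log2 ratio was -1.57, against -2.33 with it. In wild-type cells Cst7 stood at 39.9 RPKM in m6A-tagged and 32.7 RPKM in input RNA. A note in the authors' deposited table lists Cst7 and Chchd2, a mitochondrial protein gene, as differing between eluted and input RNA but not between unbound and input RNA. The authors' deposited table gives no fold change or p-value with it. Chchd2 had 92.2 RPKM in m6A-tagged, 750 RPKM in unbound and 284 RPKM in input RNA. The same note in the authors' deposited table names Rps14 as going opposite ways in the m6A-tagged and the unbound comparison, and Rps14 had 433 RPKM in m6A-tagged, 3934 RPKM in unbound and 1219 RPKM in input RNA.

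At the other end, a chosen list of single-exon genes had the highest median of the lists with at least 5 members. It does not hold all genes without introns, and exon numbers could not be checked. Of its 21 measured members 9 were compared. All 9 lay above 0, with a median of 0.94, and 4 were 2-fold higher (1.37% of all genes were). These were Cebpb and Sox4, described above, the linker histone gene H1f10 (1.43) and Ier2 (1.10). The lowest, the elongator-associated gene Kti12, had 69.9 RPKM in m6A-tagged against 48.8 RPKM in input RNA (0.51). The same genes had a wild-type median of 0.73. Immediate early genes overlap with this list in Jun, Junb and Ier2, and 7 of their 8 members lay above 0, with a median of 0.70. The AP-1 subunit gene Junb had 89.2 RPKM in m6A-tagged against 46.1 RPKM in input RNA (0.94), Jun had 76.7 RPKM in m6A-tagged against 46.0 RPKM in input RNA (0.72), and Fos had 217 RPKM in m6A-tagged against 179 RPKM in input RNA (0.28). Of 9 SOCS and DUSP genes, inhibitors of cytokine and MAP kinase signals, Socs1 was 2-fold higher, at 27.1 RPKM in m6A-tagged against 10.4 RPKM in input RNA (1.29), and the median was 0.37. Myc, Mycn and the other 5 Max network genes were all above 0, as were 61.5% of all genes. Their median was 0.30 with none past 2-fold, and the lowest, at 0.02, lay under the median of 0.12 over all genes. Myc stood at 137 RPKM in m6A-tagged against 98.0 RPKM in input RNA (0.48).

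Of 19 HSC transcription factor genes 15 lay above 0, as did 61.5% of all genes, with a median of 0.28. Among them Sox4 and Tcf15 were 2-fold higher (1.37% of all genes were). Nkx2-3 had 54.8 RPKM in m6A-tagged against 27.3 RPKM in input RNA (0.98), and the haematopoietic bHLH factor Tal1 had 17.7 RPKM in m6A-tagged against 9.49 RPKM in input RNA (0.83). Fli1, Erg and Meis1 were at -0.43, -0.34 and -0.28. Of 20 HSC surface and adhesion genes 7 lay above 0, the median was -0.12 and none passed 2-fold. The difference between the 2 lists was not tested. The lowest of these was Cd44, at 10.1 RPKM in m6A-tagged against 17.8 RPKM in input RNA (-0.76), followed by Ly6a, which encodes Sca1, at 222 RPKM in m6A-tagged against 348 RPKM in input RNA (-0.65). Kit, which encodes the stem cell factor receptor used in the sort, was at 73.9 RPKM in m6A-tagged against 92.4 RPKM in input RNA (-0.32).

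Most lineage genes stayed within 2-fold, as did most of all genes, of which 1.37% were 2-fold higher and 1.45% were 2-fold lower. The 16 granule genes of promyelocytes and neutrophils had a median of 0.19 with no member past 2-fold, and Prtn3 stood at 404 RPKM in m6A-tagged against 326 RPKM in input RNA (0.31). Of 12 megakaryocyte genes the platelet glycoprotein gene Gp5 (63.9 RPKM in m6A-tagged against 30.2 RPKM in input RNA, 1.06) and Nrgn (15.7 RPKM in m6A-tagged against 6.14 RPKM in input RNA, 1.23) were 2-fold higher, around a median of 0.20. Of 11 erythroid genes the erythroid factor Klf1 was, at 9.96 RPKM in m6A-tagged against 3.87 RPKM in input RNA (1.17). No interferon-stimulated gene passed 2-fold among 34, which had a median of 0.02 and ran to 0.89 at Isg15. With median-ratio scaling that median is below 0.

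Of the writer genes compared, Mettl3 was at -0.16 and Mettl16, a separate m6A methyltransferase, at -0.02. The 6 reader and eraser genes compared had a median of -0.23, with the readers Ythdf2 at 0.19, Ythdf1 at -0.02, Ythdc1 at -0.25 and Ythdf3 at -0.34. Their lowest was Hnrnpa2b1, a nuclear RNA-binding protein proposed as a reader, at 245 RPKM in m6A-tagged against 413 RPKM in input RNA (-0.75). It is also one of 16 hnRNP genes, which had a median of -0.40 and 2 members 2-fold lower (1.45% of all genes were). These were Hnrnpa1, with 10.2 RPKM in m6A-tagged against 30.0 RPKM in input RNA (-1.47), and Hnrnph1, with 65.5 RPKM in m6A-tagged against 138 RPKM in input RNA (-1.06). Of 13 transcripts reported as m6A targets in blood cells, Egr1 and Socs1 were 2-fold higher (1.37% of all genes were). The median of the 13 was 0.17, against 0.61 in wild-type cells. Of 48 zinc finger protein genes compared 33 lay above 0, as did 61.5% of all genes. Their median was 0.20, against 0.51 in wild-type cells. Whether the medians differ between genotypes was not tested.

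**Figure D3:**
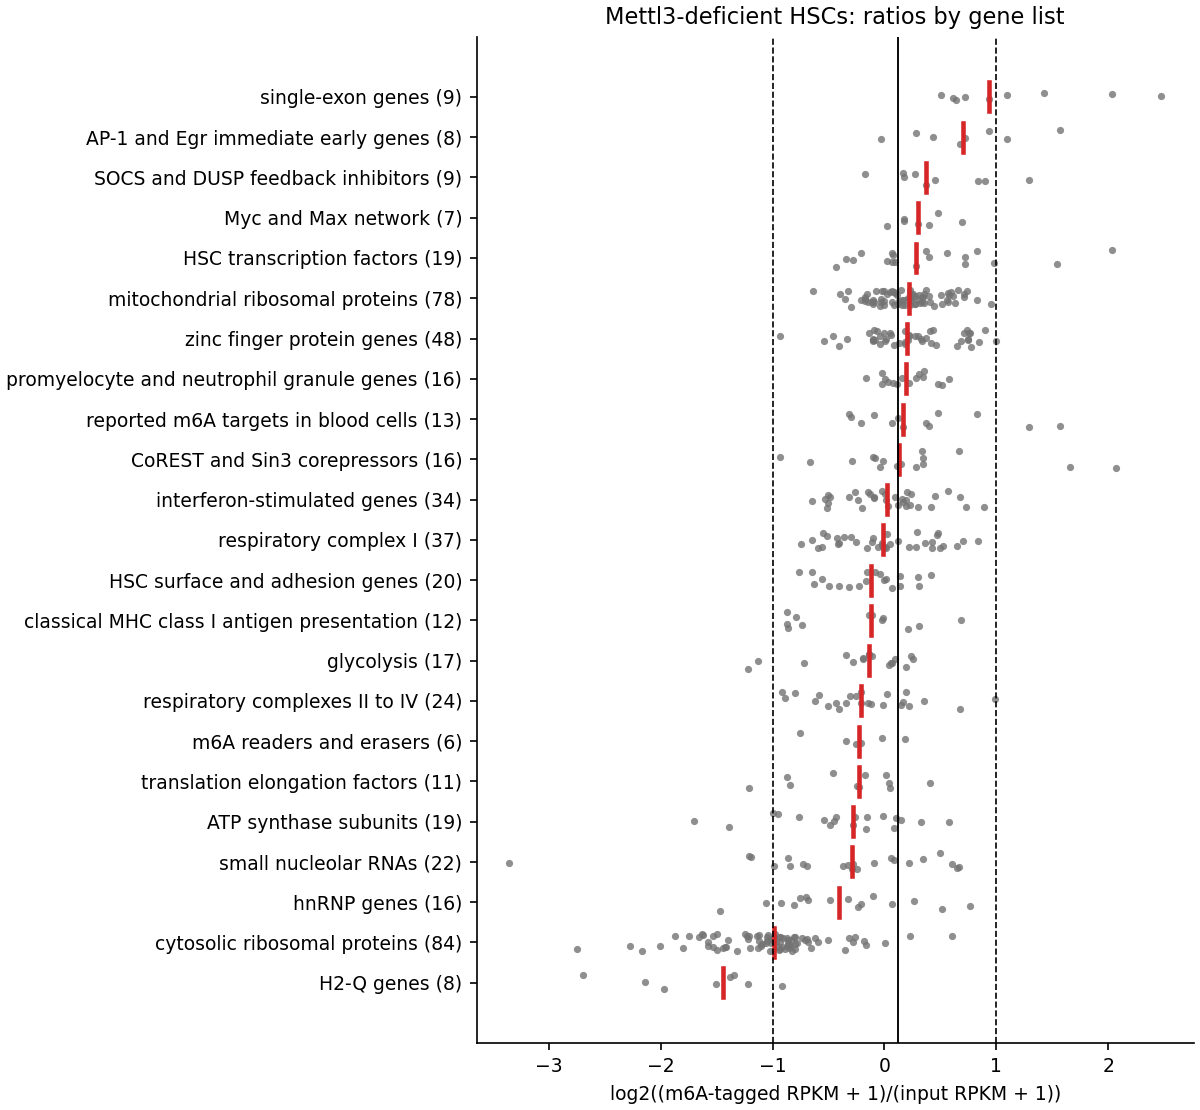
Log2 ratio of m6A-tagged over input RNA in Mettl3-deficient HSCs for each compared member (grey points) of 23 gene lists, with the list's median (red bar), the number of members in brackets, the median of all genes (solid line, 0.12) and the 2-fold size (dashed lines). The medians run between -1.44 for H2-Q genes and 0.94 for single-exon genes, and 19 of the 23 lie between -0.40 and 0.37.

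For 82 genes the reads of all 6 single libraries could be worked out from the deposited means, which allows the spread between libraries to be seen. These genes are short or hold few reads, with a median counted length of 427 bases, so they do not stand for all genes. The SD over 3 libraries on the log2(RPKM + 1) scale had a median of 0.53 in m6A-tagged and 0.49 in input RNA. All 3 m6A-tagged values were above all 3 input values for 5 genes (6.1%) and below them for 10 (12.2%). The smallest p of a two-sided exact permutation test of 3 against 3 is 0.1, so no p is given. Of the 11 of these genes past the 2-fold size, 10 did not overlap between the groups, Gm1673 being the other. The size and the overlap use the same reads and are not independent.

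Rps29 had 146, 143 and 164 reads in the m6A-tagged libraries, in order of rising depth, against 244, 721 and 425 in the input libraries. In RPKM this was 13.0 ± 1.30 in m6A-tagged and 62.1 ± 24.0 in input RNA (SD, n = 3 each). Rps27 had 15.5 ± 6.06 RPKM in m6A-tagged and 45.5 ± 13.1 RPKM in input RNA, and Atp5g2 had 2.90 ± 0.817 RPKM in m6A-tagged and 11.7 ± 4.44 RPKM in input RNA (SD, n = 3 each). In these 3 genes the values of the libraries were well apart between the fractions. Rpl11 had 130, 57.3 and 31.0 RPKM in m6A-tagged against 416, 260 and 223 RPKM in input RNA, but its counted length was 24 bases. Without the shallowest m6A-tagged library its ratio was -2.74, against -2.01 with it. On the high side, H1f10 had 53, 65 and 321 reads in m6A-tagged against 9, 22 and 30 reads in input RNA, and without the deepest m6A-tagged library its log2 ratio was 0.62 and under 2-fold. Snord1b had 8, 22 and 1 reads in m6A-tagged against 8, 23 and 26 in input RNA. Without the deepest m6A-tagged library its ratio was -0.75, and without the middle one -2.01.

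**Figure D4:**
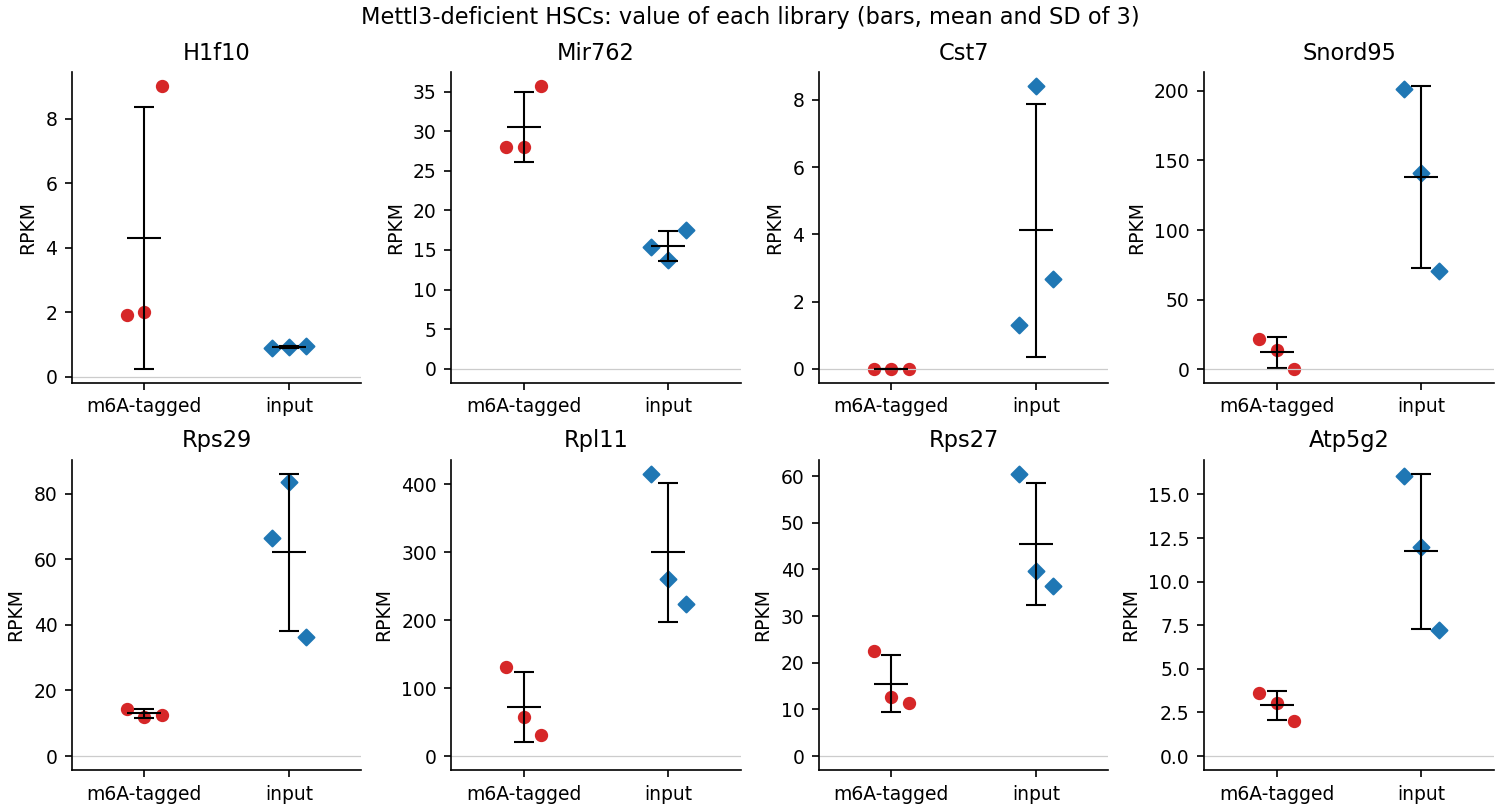
RPKM of each single library in Mettl3-deficient HSCs for 8 of the 82 genes with resolved reads, m6A-tagged libraries (circles) left of input libraries (diamonds), ordered by depth within each, with the mean and SD of 3. The 8 genes were picked from those whose fractions do not overlap, while the fractions of 67 of the 82 overlap. In H1f10, 1 m6A-tagged library stands far above the other 2.

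Among the genes compared were 11 miRNA loci, whose values are reads over the hairpin gene in polyadenylated RNA and not the mature miRNA, so that a primary transcript and an overlapping gene cannot be told apart. METTL3 is known to mark primary miRNA transcripts in other cells. None passed 2-fold, and the median log2 ratio was 0.18. RefSeq (GRCm38.p6) gave a mature sequence for 8 of the 11, with 10 mature miRNAs whose seeds (bases 2 to 8) all differ. The 2 highest and the 2 lowest of these loci are shown to identify them, with the seed in capitals.
mmu-miR-1966-3p: uUUCUGACucaacucucccuuag
mmu-miR-762: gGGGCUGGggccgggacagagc
mmu-miR-703: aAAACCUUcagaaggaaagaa
mmu-miR-682: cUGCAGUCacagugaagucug
Mir1966 had 127 RPKM in m6A-tagged, 7.13 RPKM in unbound and 68.1 RPKM in input RNA (0.89). Mir762 had 55, 65 and 91 reads in the m6A-tagged libraries against 11, 23 and 40 in the input libraries, 30.5 ± 4.43 RPKM in m6A-tagged and 15.5 ± 1.91 RPKM in input RNA (SD, n = 3 each). Its fractions did not overlap, while its wild-type ratio was -0.11. Mir703 had 78, 9 and 28 reads in m6A-tagged against 38, 34 and 60 in input RNA (-0.82), and its fractions overlapped. Mir682 had 316 RPKM in m6A-tagged, 1965 RPKM in unbound and 569 RPKM in input RNA (-0.85).

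The ratio varied with the genomic span of the gene, from its first to its last base with introns. Over 5 groups of 1257 or 1258 genes by rising span, the median log2 ratio was 0.22, 0.18, 0.14, 0.06 and 0.00, and in wild-type cells 0.20, 0.10, 0.02, 0.00 and -0.01. The Spearman correlation with span was -0.17 across 6288 genes and -0.20 without the ribosomal protein genes, across genes that share the same libraries. Of the 91 lower genes 65 were in the group of shortest span, which also held 34 of the 86 higher ones. By rising mean RPKM the medians were 0.16, 0.14, 0.17, 0.13 and 0.00, and 45 of the lower genes but 2 of the higher ones were in the most abundant group. Protein-coding genes were 6146 of the 6295 compared, and made up all 86 higher and 79 of the lower ones. Of 81 long noncoding RNA genes none was higher (1.37% of all genes were) and 2 were lower (1.45% of all genes were), with a median of 0.20.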

How the data were processed

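The authors deposited RPKM values, 1 column per fraction and genotype, without values of single libraries. The build is mm10, and the tools named are Picard and edgeR, per the submitters' processing notes, without role or version. Which aligner and counter were used is not given in the sources used here. From their values, the columns are means over 3 libraries in which 1 read was first added to each gene, so depths, counted lengths and, for 82 genes compared, reads of single libraries could be solved with Python 3.11.15, numpy and numba. On simulated data for the 6295 genes, 574 of 576 solved lengths were right, while 108 lengths were solved in the deposited values. The simulation drew unknown lengths from other genes and made some short, so its accuracy may not carry over to the data.

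A planned test across libraries was not possible with pooled columns, so genes were counted by a 2-fold size on log2((RPKM + 1)/(RPKM + 1)), which understates the change of low genes, as does the added read. Symbols came from RefSeq by gene ID (22959 of 23038 matched), since 25 were held as dates. Named genes were the 15 highest and lowest, up to 4 members per list furthest from 0, members past 2-fold, those beside the 2-fold size and Mettl3. Other genes were chosen after their values were seen. The members and lists were chosen with earlier results of these data known. The RefSeq promoter table was not used, since it held too few of the genes past 2-fold. Solved depths are effective library sizes and cover counting error only.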

Additional observations from a re-analysis of the deposited data

How the results depend on the processing

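For most genes no value per library was at hand, so the depth behind a single gene's ratio is unknown. The 86 higher genes became 30 with 5 RPKM added, 273 with no minimum (23038 genes), 17 with a minimum mean of 50 RPKM (2411 genes), 51 with median-ratio and 52 with upper-quartile scaling, and 2122 with unbound in place of input. The 91 lower genes became 146 with no minimum and 1061 with unbound in place of input, and stayed between 69 and 130 under the other alternatives. With 0.1 RPKM added, 119 genes were higher and 106 lower. Under unbound in place of input the median of cytosolic ribosomal protein genes was -2.29 and that of H2-Q genes was 0.31, against -1.44 with input. In that setting Snord69 (2.32), Hnrnph1 (1.42), Dhx15 (1.23), H2-Q8 (1.12) and H2-Q6 (1.07) went from at least 2-fold lower to at least 2-fold higher. Other genes changed sign by less on 1 or both sides. Kit, at 73.9 RPKM in m6A-tagged RNA, lay under input (92.4 RPKM) but above unbound RNA (9.52 RPKM). Mrpl53, at 91.0 RPKM in m6A-tagged RNA, lay above input (46.5 RPKM) but under unbound RNA (122 RPKM). The alternative reference is another fraction, and the cause of each change was not tested. Leaving out 1 library was possible for genes with resolved reads, and the log2 ratio then ran between -4.08 and -2.87 for Snord95, -2.71 and -1.57 for Cst7, -2.44 and -1.90 for Rps29, and 0.62 and 1.75 for H1f10. Leaving ribosomal, small nucleolar and Rn45s RNA out of the column totals was not run, since most gene lengths are not known. No paired analysis was possible because the pooled columns carry no replicate numbers.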
